A study of Homo sapiens with 18 samples.

Results

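The 10 genes described here encode the lysosomal GTPases RagC and RagD, the partners of folliculin, the MiT/TFE transcription factors, and 3 membrane proteins that these factors regulate or respond to. They are RRAGC, RRAGD, FNIP1, FNIP2, TFEB, TFE3, MITF, MCOLN1, MCOLN3 and GPNMB, and 10 of the 22465 genes measured. Each was read from the array row annotated with its symbol alone. RRAGC, RRAGD, FNIP1, MCOLN3 and GPNMB were chosen because their signal was higher under palbociclib in these same arrays, and the other 5 were set beside them. Differences of the 10 genes between palbociclib and control are therefore given as a description. Calls among them are counted beside the share of all genes, and these counts are not read as evidence.

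The arrays compared RT112 and J82, established human bladder cancer cell lines, after palbociclib, an inhibitor of the kinases CDK4 and CDK6, at the IC50, with the same lines given PBS as the control. The labels give no concentration or duration. There were 3 arrays in each of the 4 groups, RT112 under palbociclib, RT112 control, J82 under palbociclib and J82 control, from 3 dishes of cells per the treatment protocol in the labels, so p-values measure the spread between dishes, which may be technical. A further line, 5637, was left out because the values in its rows showed no relation to J82 or RT112 (r = 0.027 with J82 across 67528 rows, against r = 0.94 between J82 and RT112; rows are not independent replicates). Values are log2 intensities as deposited, and they reach 19.93, so high that the step which set this scale is unknown and a difference is not read here as a fold change. Array medians lay between 4.80 and 4.94 on 11 arrays and at 5.21 on replicate 1 of RT112 under palbociclib, which stood apart by its median. The RT112 differences of the 10 genes are given with and without that array. The lowest r with a partner was 0.972 or 0.973 for every array of that group, against 0.984 or more in the other groups. Of 16 urothelial and epithelial markers, 3 rose (KRT5, KRT19 and GRHL3) and 2 fell (KRT18 and UPK1B) in RT112, while none rose and 2 fell (KRT8 and KRT18) in J82. Of 8 mesenchymal markers none rose in either line, 2 fell in RT112 and 3 fell in J82. Of all genes, 4.95% were called higher and 3.53% lower in RT112, and 5.4% higher and 2.78% lower in J82. The epithelial cadherin CDH1 averaged 13.57 under palbociclib and 13.51 in control RT112, but 5.33 under palbociclib and 5.68 in control J82, near the array medians. KRT18, an epithelial keratin, averaged 11.28 under palbociclib and 12.53 in control RT112, and 11.82 under palbociclib and 14.38 in control J82. KRT19, another keratin, averaged 13.48 under palbociclib and 11.75 in control RT112. The uroplakin gene UPK1B averaged 8.56 under palbociclib and 9.83 in control RT112, and lay near the array medians in J82. What these shifts bring to the results was not tested.

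Rag GTPases work as pairs in which RagA or RagB joins RagC or RagD, and the pair holds mTORC1 on the lysosome when amino acids are plentiful. Folliculin, with FNIP1 or FNIP2, drives RagC and RagD to the form that presents TFEB and TFE3 to mTORC1, which keeps these factors phosphorylated and out of the nucleus. When the factors enter the nucleus they bind CACGTG-type sites near genes of the lysosome and of autophagy, and RRAGC, RRAGD, FNIP1, FNIP2, MCOLN1 and GPNMB are among their known targets. These transcripts say nothing of phosphorylation or of where the proteins lie in the cell.

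The CACGTG core was searched on both strands, which is a single search because the core is its own reverse complement, in RefSeq promoter windows (GRCh38.p14) of 300 bases, 250 before and 50 after each start. Of the 10 genes 9 matched an entry, with 14 windows. RRAGD matched none, nor did RRAGA, which lies outside the 10, so neither was searched, although both were higher under palbociclib in both lines. Among the 9 genes 3 held the core, against 8.77% of the 27305 genes with a window. The 200 bases before the start are printed for these 3, RRAGC, FNIP1 and MCOLN1, which were higher under palbociclib in both lines, and for RRAGB, a Rag gene outside the 10 that rose in both, with each core in capitals.
RRAGC, chr1:38859773-38859972, minus strand: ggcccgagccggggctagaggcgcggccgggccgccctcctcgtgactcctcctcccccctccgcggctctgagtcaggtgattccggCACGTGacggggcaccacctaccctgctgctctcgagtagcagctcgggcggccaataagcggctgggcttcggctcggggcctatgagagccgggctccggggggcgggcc
FNIP1, chr5:131797018-131797217, minus strand: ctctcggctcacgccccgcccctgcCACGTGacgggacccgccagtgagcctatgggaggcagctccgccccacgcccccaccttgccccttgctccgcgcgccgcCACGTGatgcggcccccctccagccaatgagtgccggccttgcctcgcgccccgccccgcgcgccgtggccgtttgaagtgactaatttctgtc
MCOLN1, chr19:7522424-7522623, plus strand: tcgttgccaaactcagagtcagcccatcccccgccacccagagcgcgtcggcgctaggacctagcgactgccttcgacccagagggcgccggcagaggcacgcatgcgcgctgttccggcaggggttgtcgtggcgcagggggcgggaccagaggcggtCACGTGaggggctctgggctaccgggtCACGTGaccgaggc
RRAGB, chrX:55717549-55717748, plus strand: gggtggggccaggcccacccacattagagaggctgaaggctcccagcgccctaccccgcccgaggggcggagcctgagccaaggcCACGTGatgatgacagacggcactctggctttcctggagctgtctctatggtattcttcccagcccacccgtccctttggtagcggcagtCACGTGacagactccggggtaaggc
Counted from the start, the core begins at -112 in RRAGC, at -175 and -94 in FNIP1, at -41 and -14 in MCOLN1, and at -115 and -25 in RRAGB, which holds a further core at 8. Both cores of MCOLN1, and the nearer of those printed for RRAGB, have T before and A after them, an 8-base palindrome that overlaps the core and stands in 0.98% of all 35116 windows. The windows of FNIP2, TFEB, TFE3, MITF, MCOLN3 and GPNMB hold no CACGTG, which says only that these letters are not in these windows.

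The Rag GTPase genes were higher under palbociclib in both lines, on every array. RRAGC, which encodes RagC, read 8.16, 8.99 and 8.82 in RT112 under palbociclib, against 7.27, 7.53 and 7.76 in RT112 controls. In J82 it read 10.84, 11.10 and 11.60 under palbociclib and 8.87, 9.38 and 8.88 in controls. The groups did not overlap in either line, and the log2 difference was 1.14 ± 0.25 in RT112 and 2.14 ± 0.25 in J82 (SE, n = 3 per group). Replicate 1 of RT112 under palbociclib was the lowest of its group, and without it the RT112 difference was 1.39.

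RRAGD, which encodes RagD, read 6.79, 6.60 and 6.99 under palbociclib in RT112 and 5.74, 5.76 and 6.02 in RT112 controls. The J82 arrays read 9.18, 9.25 and 9.91 under palbociclib and 6.82, 7.11 and 6.92 in controls. Again every treated array lay above every control array of its line. The log2 difference was 0.95 ± 0.18 in RT112 (0.95 without replicate 1 of the treated group) and 2.50 ± 0.18 in J82. For both Rag genes the treated RT112 arrays overlapped the J82 controls, the next group up in level, so the order from high to low was J82 under palbociclib, then J82 control and RT112 under palbociclib without a gap, then RT112 control.

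Of the folliculin partners, FNIP1 was higher in both lines and more so in RT112, where RRAGC and RRAGD differed less than in J82. FNIP1 read 8.63, 9.05 and 9.54 under palbociclib in RT112, against 7.28, 7.32 and 7.41 in RT112 controls, with no overlap and a log2 difference of 1.74 ± 0.21 (1.96 without replicate 1 of the treated group, its lowest array). J82 arrays gave 9.89, 10.13 and 10.43 under palbociclib and 9.42, 9.60 and 9.75 in controls. These J82 groups lay close together without overlap, and the difference was 0.56 ± 0.21. As with the Rag genes, treated RT112 arrays reached into the range of the J82 controls.

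FNIP2, the other partner of folliculin, lay near the array medians, where background limits the size of any difference. It read 5.16, 4.97 and 5.05 in RT112 under palbociclib and 4.83, 5.10 and 5.03 in RT112 controls, which overlapped, with a log2 difference of 0.07 ± 0.11. That value was 0.02 without replicate 1 of the treated group, -0.004 without control 1, 0.13 without control 2 and 0.12 without treated replicate 2, so its sign is not settled. In J82 it read 5.30, 5.23 and 5.52 under palbociclib and 4.97, 4.88 and 4.80 in controls, without overlap, and the difference was 0.47 ± 0.11. J82 under palbociclib was the highest group, and the other 3 overlapped their neighbours.

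The 3 transcription factor genes did not share the pattern of the Rag genes. TFEB, which encodes the factor most studied in lysosome biogenesis, read between 4.66 and 5.05 on all 12 arrays and was below the median of its own array on 8 of them. Its groups overlapped in both lines, with log2 differences of -0.04 ± 0.09 in RT112 and -0.08 ± 0.09 in J82. With single arrays left out the RT112 value ran from -0.11 (without treated replicate 1) to 0.01 (without treated replicate 3), and the J82 value was -0.04 without control 2. A level this close to the median leaves a change of TFEB hard to see on these arrays.

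TFE3, a close relative of TFEB, was clearly above the array medians. It read 6.96, 6.89 and 6.96 under palbociclib in RT112 and 6.61, 6.63 and 6.52 in RT112 controls, which did not overlap, with a log2 difference of 0.35 ± 0.19 (0.34 without treated replicate 1). The J82 values were 7.81, 7.42 and 8.004 under palbociclib and 8.47, 7.77 and 7.81 in controls, which overlapped, with a difference of -0.27 ± 0.19. The J82 value was -0.04 without control 1, its highest array, and -0.11 without treated replicate 2, its lowest, and in J82 the SD was 0.30 under palbociclib and 0.40 in controls. Both J82 groups lay above both RT112 groups.

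MITF, the member of the family best known from pigment cells, was near the array medians in every group. It read 5.26, 5.16 and 5.04 under palbociclib in RT112 and 5.44, 5.42 and 5.24 in RT112 controls, with a log2 difference of -0.21 ± 0.10 (-0.27 without treated replicate 1). J82 arrays gave 4.88, 4.82 and 4.87 under palbociclib and 5.08, 5.02 and 4.94 in controls, a difference of -0.16 ± 0.10. The RT112 groups overlapped at the edge and those of J82 did not, and RT112 under palbociclib overlapped J82 control, the next group down. Of 7 pigment cell markers measured, 6 lay below the array median on all 12 arrays, among them TYR, MLANA and PMEL. SOX10 did not, but its group means, 5.02 to 5.19, lay within the range of the array medians, 4.80 to 5.21. The mean over the list ran from 4.21 to 4.57 in RT112 under palbociclib, 4.36 to 4.38 in RT112 controls, 4.28 to 4.37 in J82 under palbociclib and 4.32 to 4.33 in J82 controls.

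**Figure D1:**
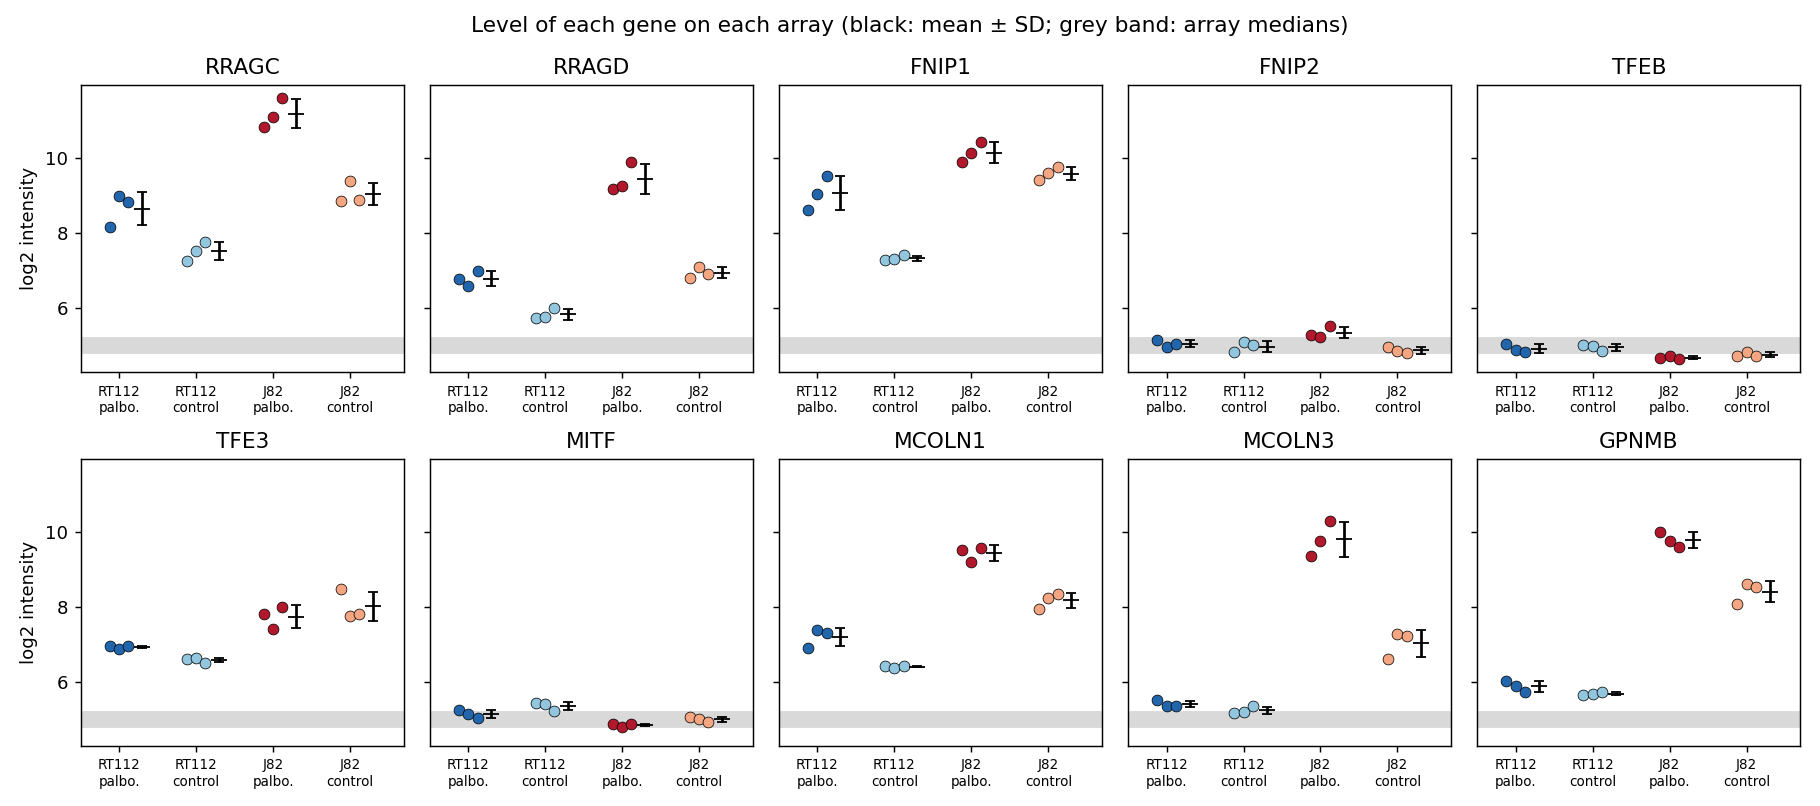
Log2 intensity (y axis) of the 10 genes on each of the 12 arrays, with RT112 left of J82 and palbociclib left of control. Points are arrays, black marks are mean ± SD (n = 3), and the grey band spans the array medians, 4.80 to 5.21. FNIP2, TFEB and MITF lie on or near the band, some arrays above it and some below.

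The lysosomal channel genes differed from each other between the lines. MCOLN1, the lysosomal calcium channel whose release of calcium favours the dephosphorylation of TFEB, read 6.92, 7.38 and 7.31 under palbociclib in RT112, against 6.43, 6.39 and 6.43 in RT112 controls. J82 arrays gave 9.53, 9.20 and 9.57 under palbociclib and 7.95, 8.24 and 8.34 in controls. No groups overlapped, and the log2 difference was 0.79 ± 0.16 in RT112 (0.93 without replicate 1 of the treated group) and 1.26 ± 0.16 in J82.

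MCOLN3, a related endolysosomal channel, differed little in RT112 and showed the widest gap of the 10 genes in J82. In RT112 it read 5.51, 5.37 and 5.36 under palbociclib and 5.18, 5.22 and 5.36 in controls, which overlapped, with a log2 difference of 0.16 ± 0.21 (0.11 without treated replicate 1). J82 arrays read 9.36, 9.76 and 10.28 under palbociclib, against 6.63, 7.27 and 7.23 in controls, without overlap and with a difference of 2.76 ± 0.21. In RT112 its level was near the array medians in both groups, so a low signal there bounds what could be seen.

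GPNMB, a transmembrane glycoprotein of lysosomes and melanosomes, had the same order of groups as MCOLN3. In RT112 it read 6.03, 5.90 and 5.73 under palbociclib and 5.67, 5.69 and 5.73 in controls, which overlapped at the edge, with a log2 difference of 0.19 ± 0.16, which was 0.12 without treated replicate 1. J82 arrays read 10.00, 9.76 and 9.59 under palbociclib, against 8.09, 8.61 and 8.52 in controls, without overlap and with a difference of 1.37 ± 0.16. For both genes J82 under palbociclib was highest, then J82 control, and the RT112 groups, which overlapped, were lowest. GPNMB in RT112, with means of 5.89 under palbociclib and 5.70 in controls, was also not far above the array medians. GPNMB is also high in macrophages, and of 9 macrophage and osteoclast markers 5 lay below the array median on all 12 arrays, PTPRC, the general leukocyte gene, with group means between 4.21 and 4.34. CD68, which many cell types carry in lysosomes, averaged 7.72 under palbociclib and 7.49 in control RT112, and 10.69 under palbociclib and 10.82 in control J82. CD14 averaged 3.99 under palbociclib and 3.99 in control RT112, and 5.48 under palbociclib and 5.25 in control J82. TYROBP averaged between 5.61 and 5.70 in every group. By limma, 2 of the 9 markers, CD14 and CD68, were lower in untreated RT112 than in untreated J82, at an adjusted p under 0.05. None was higher, where 14.7% of all genes were lower and 12.8% higher. In cultures read as pooled RNA, a larger share of cells with a transcript and more of it per cell cannot be told apart.

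**Figure D2:**
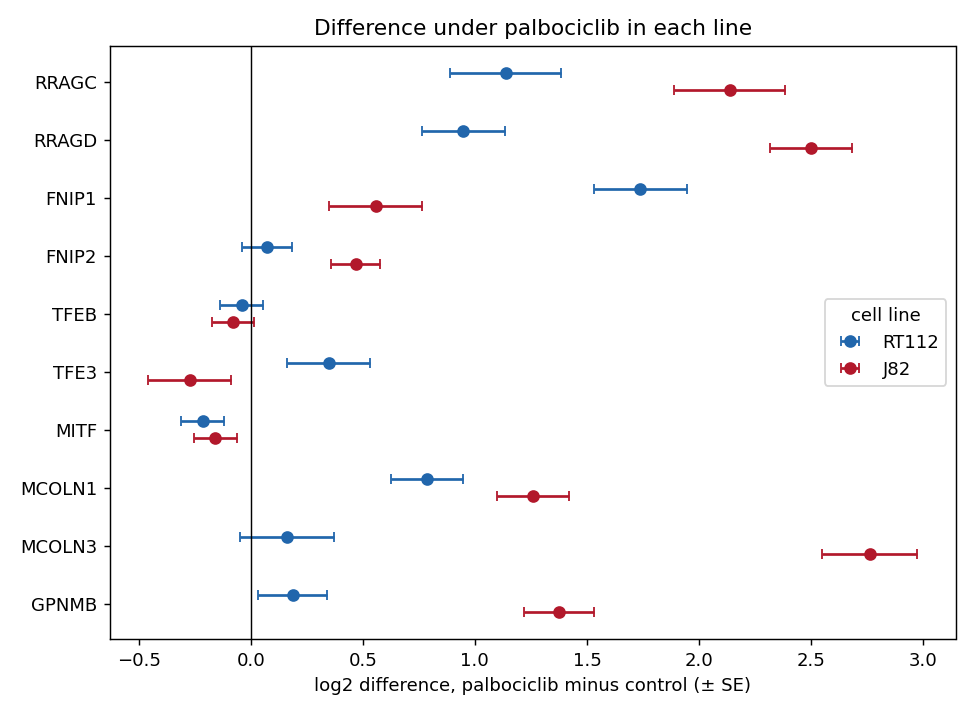
Log2 difference, palbociclib minus control (x axis, ± SE from limma), of each gene in RT112 (blue, upper) and J82 (red, lower). MCOLN3 stands at 0.16 in RT112 and 2.76 in J82, and FNIP1 at 1.74 in RT112 and 0.56 in J82.

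In numbers, 4 of the 10 genes in RT112 (FNIP1, RRAGC, RRAGD and MCOLN1) and 6 in J82 (RRAGC, RRAGD, FNIP2, MCOLN1, MCOLN3 and GPNMB) were higher at an adjusted p under 0.05, where 4.95% of all genes were called higher in RT112 and 5.4% in J82, and 8.48% and 8.18% in either direction. None of the 10 was called lower, where 3.53% of all genes were in RT112 and 2.78% in J82. The groups did not overlap, palbociclib above control, for 5 of the 10 in RT112, where 14.5% of all genes did so, and for 7 in J82, where 16.1% did. Palbociclib lay below control without overlap for none in RT112, against 8.26% of all genes, and for MITF in J82, against 7.82%. Since these contrasts chose the genes, the counts are not evidence about them. At the edge of the call in RT112 lay RRAGC at 1.14 inside and MITF at -0.21 outside, and in J82 FNIP2 at 0.47 inside and FNIP1 at 0.56 outside. The RT112 response minus the J82 response was -1.0 ± 0.35 for RRAGC, -1.55 ± 0.26 for RRAGD, -2.60 ± 0.30 for MCOLN3 and -1.19 ± 0.22 for GPNMB. For FNIP1 it was 1.18 ± 0.29, the sign opposite to those 4. These differences come from the same arrays and were not tested; over all genes 1.83% were called above 0, 2.74% below and 4.57% in either direction.

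The untreated lines differed in most of these genes, a comparison that did not choose them, although its control arrays also enter the comparisons that did. Untreated RT112 was lower than untreated J82 for 7 of the 10 genes and higher for 1, at an adjusted p under 0.05 by limma, where 14.7% of all genes were lower, 12.8% higher and 27.5% either. GPNMB had the largest gap among the 10, at -2.71 ± 0.16 (mean 5.70 ± 0.03 in RT112 and 8.41 ± 0.28 in J82, SD, n = 3 each, adjusted p = 8.21e-09). FNIP1 followed at -2.25 ± 0.21 (limma adjusted p = 1.16e-06), then MCOLN3 at -1.79 ± 0.21 and MCOLN1 at -1.76 ± 0.16. RRAGC stood at -1.52 ± 0.25 (limma adjusted p = 0.000261), the factor gene TFE3 at -1.43 ± 0.19 (limma adjusted p = 3.31e-05) and RRAGD at -1.11 ± 0.18. In all 7 the 3 RT112 controls lay below the 3 J82 controls, which held for 22.4% of all genes, while 29.2% lay the other way.

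MITF was the gene higher in untreated RT112, by 0.35 ± 0.10 (limma adjusted p = 0.0125), near the array medians in both lines. That call was lost without J82 control replicate 3 (0.318) and without RT112 control replicate 1 (0.318) or 2 (0.328). FNIP2 (0.10 ± 0.11) and TFEB (0.20 ± 0.09) did not pass, with limma adjusted p = 0.588 and adjusted p = 0.163. TFEB passed without replicate 1 of RT112 under palbociclib (0.20, limma adjusted p = 0.0448), an array that enters the estimate of the spread, and with array weights (0.19, limma adjusted p = 0.0264). The small FNIP2 value ran from 0.04 to 0.18 with single arrays left out. Under palbociclib the log2 difference between the lines, RT112 minus J82, was -4.39 for MCOLN3 and -3.90 for GPNMB.

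**Figure D3:**
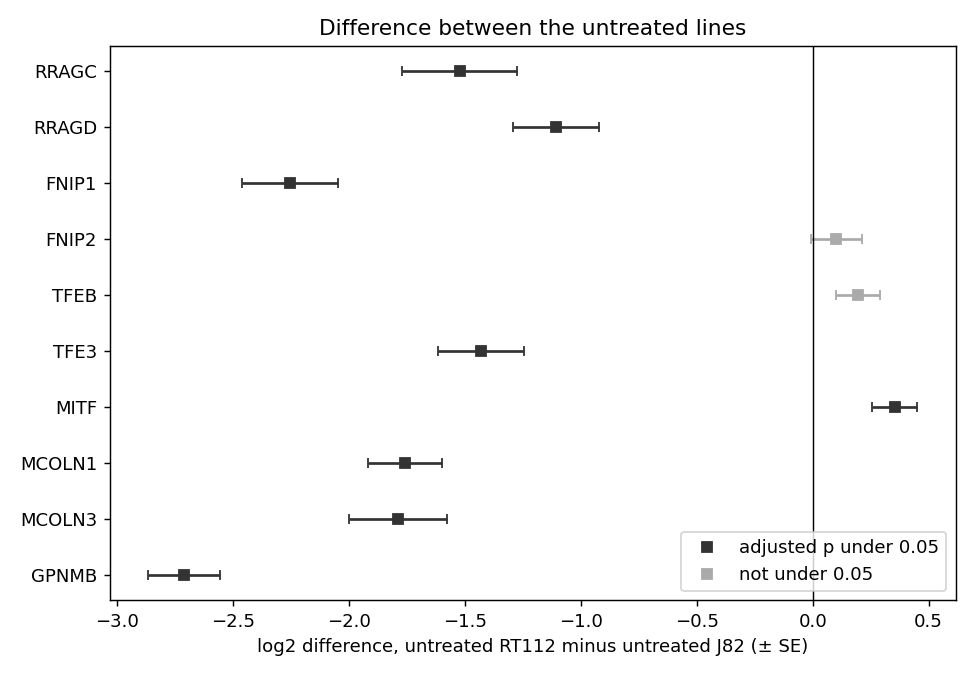
Log2 difference, untreated RT112 minus untreated J82 (x axis, ± SE from limma), for each gene. Dark squares passed at an adjusted p under 0.05, and 7 of them lie below 0, from -1.11 for RRAGD to -2.71 for GPNMB.

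Other genes of the pathway were read from 3 lists. Of 28 measured genes for Rag GTPases, Ragulator and amino acid sensing, 7 rose and none fell in RT112, 9 rose and none fell in J82, and 6 rose in both. Of all genes, 4.95% were called higher and 3.53% lower in RT112, and 5.4% higher and 2.78% lower in J82. How many of all genes rose in both lines was not counted. The list had a median log2 difference of 0.23 in RT112 and 0.26 in J82 against 0.04 over all genes in each line. RRAGA, the partner of RagC and RagD, rose by 1.20 ± 0.21 in RT112 (limma adjusted p = 0.00247) and by 0.88 ± 0.21 in J82 (limma adjusted p = 0.0194). RRAGB, the other partner gene, rose by 0.88 ± 0.19 in RT112 and by 1.22 ± 0.19 in J82 (limma adjusted p = 0.00115). TSC1, a brake on mTORC1, rose by 1.09 in RT112, WDR59 of the GATOR2 complex by 0.81 and the Ragulator subunit LAMTOR3 by 0.70. In J82 the sestrin genes SESN3 and SESN2 rose by 1.13 and 0.89, and RHEB, the GTPase that activates mTORC1, by 0.91. The J82 call of RRAGA was lost without J82 control 3 (0.67), palbociclib 1 (0.74) or palbociclib 2 (0.87). That of SESN3 was lost without J82 palbociclib 3 (0.90). With array medians made equal the values hardly moved, but the calls of RRAGA (0.87), SESN3 (1.13) and RHEB (0.91) in J82, and of RRAGB (0.85) and WDR59 (0.78) in RT112, were lost. RRAGA in J82 was also lost with the line fitted alone. FLCN, which encodes folliculin, was not analysed here.

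Of 9 genes for lysosomal calcium, calcineurin and TFEC, none passed in RT112, at a median of 0.02, and 1 rose in J82, at a median of 0.07, with 5.4% of all genes called higher in J82 and an all-gene median of 0.04 in each line, so the list was near the background. That gene was PPP3CC, a catalytic subunit of calcineurin, at 0.45 ± 0.10 (limma adjusted p = 0.0133), a call lost without J82 control 2 (0.43) or 3 (0.44), with array medians made equal (0.45) and with the line fitted alone (0.45). TFEC, the remaining gene of the MiT/TFE family, was low, with means of 4.37 under palbociclib and 4.53 in control RT112, and 4.23 under palbociclib and 4.25 in control J82. MCOLN2, the third mucolipin channel gene, averaged 4.86 under palbociclib and 4.84 in control RT112, and 6.40 under palbociclib and 6.23 in control J82.

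Of 31 measured MiT/TFE target genes of lysosome and autophagy, 9 rose and 1 fell in RT112, 19 rose and none fell in J82, and 9 rose in both. Of all genes, 4.95% were called higher and 3.53% lower in RT112, and 5.4% higher and 2.78% lower in J82. The share of all genes that rose in both lines was not counted. The list had a median log2 difference of 0.53 in RT112 and 0.83 in J82, against 0.04 over all genes in each line. In RT112 the autophagy gene WIPI1 rose by 1.77 ± 0.19 (limma adjusted p = 3.43e-05), the saposin precursor PSAP by 0.96, the proton pump subunit ATP6V0D1 by 0.85, the autophagosome gene GABARAPL1 by 0.82 and the vesicle tethering gene VPS18 by 0.80. In RT112 the call of PSAP was lost without any of RT112 control 1, 2 or 3, RT112 palbociclib 2 or 3, or J82 control 2 (values from 0.83 to 1.06). That of GABARAPL1 was lost without RT112 control 1, 2 or 3 or RT112 palbociclib 1 or 3 (0.73 to 0.88), and that of ATP6V0D1 without RT112 control 3 (0.71) or palbociclib 3 (0.69). With array medians made equal the calls of PSAP (0.93), ATP6V0D1 (0.82), GABARAPL1 (0.79) and VPS18 (0.77) were lost. GLA, a lysosomal galactosidase, fell by 0.99 in RT112. In J82 the acid ceramidase ASAH1 rose by 2.47 ± 0.19 (limma adjusted p = 4.58e-06), the lysosomal chloride transporter CLCN7 by 2.13, the hexosaminidase subunit HEXA by 1.63, the membrane protein LAMP2 by 1.42 and PIP4P1, a lysosomal phosphatase, by 1.23. Over the 3 lists, 17 of 68 genes passed in RT112 and 29 in J82, where 8.48% of all genes passed in RT112 and 8.18% in J82. In RT112 that total was 6 once array medians were made equal, 37 with array weights, 11 without control 1, control 3, palbociclib 2 or palbociclib 3, 10 without control 2, and 20 without palbociclib 1, the array that stood apart. In J82 it was 19 with the line fitted alone and 20 once array medians were made equal.

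**Figure D4:**
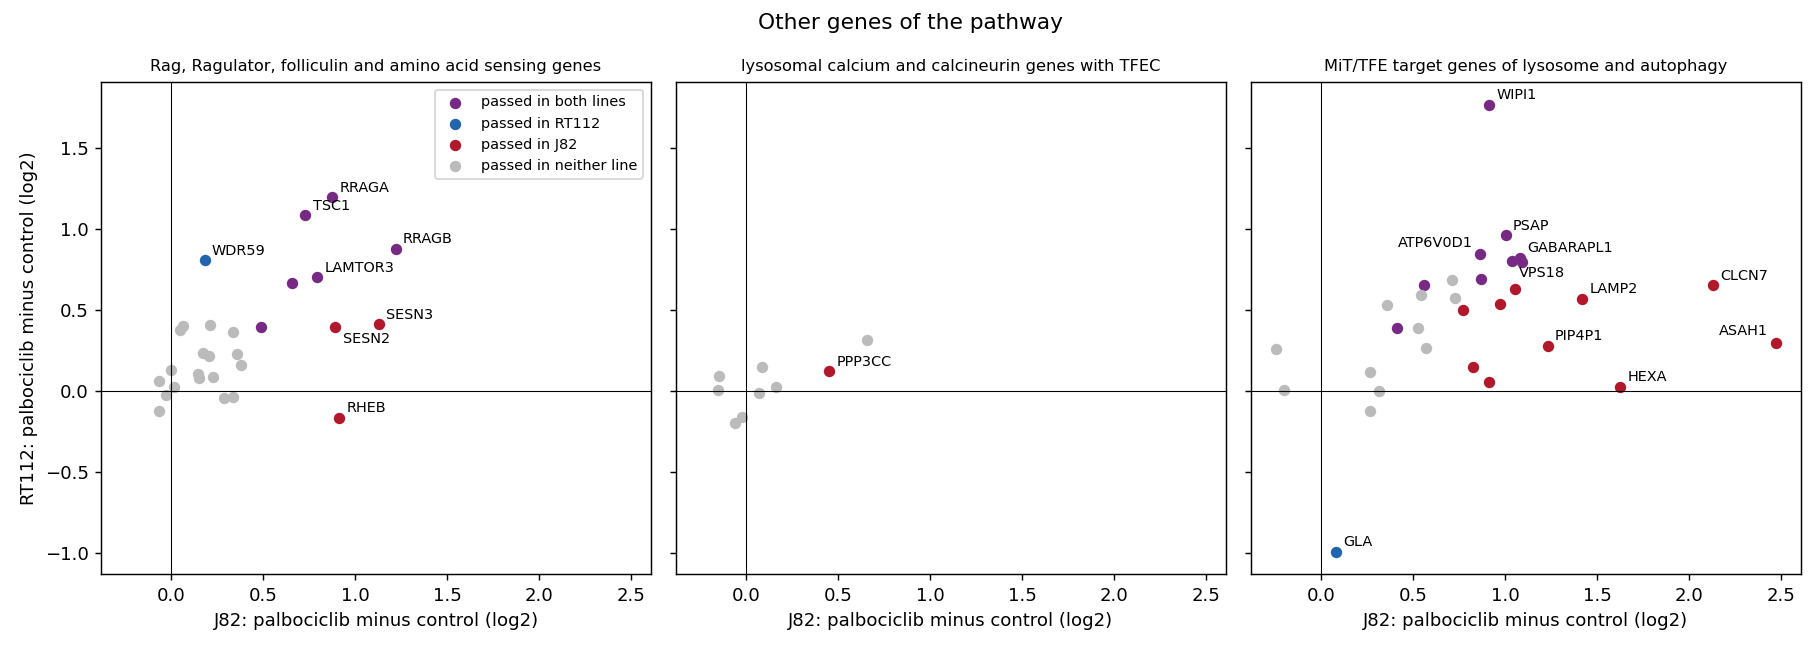
Log2 difference under palbociclib in J82 (x axis) and RT112 (y axis) for the genes of the 3 lists, each point a gene, coloured by the line in which it passed. The 15 genes that rose in both lines lie in the upper right of the left and right panels. The share of all genes that did so was not counted. GLA, at -0.99 in RT112, lies below.

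The genes whose profiles over the 12 arrays were most like those of the 5 chosen genes were found by the root mean square difference of log2 values, each gene taken about its own mean. Genes with locus, long intergenic, microRNA, other small RNA or clone names were left out of this ranking. The nearest to RRAGC were the alanyl-tRNA synthetase gene AARS1 (0.22), RRAGD (0.28) and the syntaxin gene STX3 (0.30), where the SD of RRAGC itself over the arrays was 1.42. RRAGD had the same neighbours, RRAGC (0.28), AARS1 (0.35) and STX3 (0.36). AARS1 differed by 1.07 in RT112 and 2.11 in J82, close to the values of RRAGC. FNIP1 lay nearest to TMEM47 (0.16), the transcription factor gene KLF6 (0.25) and WIPI1 (0.25), each with a higher difference in RT112 than in J82. MCOLN3 lay nearest to ASAH1 (0.19), HSD17B14 (0.27) and MYO16-AS1 (0.30). GPNMB lay nearest to the coactivator gene PPARGC1A (0.23), NCR3LG1 (0.29) and CSF2RA (0.31). The distances take in the gap between the lines as well as the response, and they are a description with no test.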

How the data were processed

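Biotinylated DNA from total RNA was hybridised to Affymetrix whole-transcript arrays, as the labels describe. Each deposited value is a log2 probe set intensity made by the authors. RMA and Affymetrix Expression Console appear in the submitters' processing notes without a version, and the genome build was not given in the sources used here. Detection calls were not used, and precision is limited by how many arrays there are. Of 70523 rows, 23781 carry 1 symbol in the platform annotation, 1543 several and 45199 none. The brightest transcript cluster row per symbol was kept (each of the 10 genes had 1), which left 22465 genes. Of 77 genes on the pathway lists 68 were measured.

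A limma model (version 3.58.1, R 4.3.3) took the 12 arrays as group means (eBayes with an intensity trend, 8 residual degrees of freedom). The contrasts were palbociclib minus control per line, the RT112 response minus the J82 response, and untreated RT112 minus untreated J82. The 4 groups share 1 spread per gene, so SE values are the same across lines. Adjusted p-values are Benjamini-Hochberg over all genes, with a threshold of 0.05. The fit was tested on simulated data. The members and lists were chosen with earlier results of these data known. Named were the 10 genes, up to 5 highest and 5 lowest passing genes per list and line, the relatives FLCN, RRAGA, RRAGB, TFEC and MCOLN2, and for 5 of the 10 the 3 genes of nearest profile; PPARGC1A also appears among the line differences. Promoters are RefSeq's. Alternatives were a replicate block, equal array medians, quantile normalization, a filter keeping bright genes, averaged probe sets, eBayes with no trend or with a robust prior, array weights, a fit per line, and leaving out single arrays.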

Additional observations from a re-analysis of the deposited data

Results flagged for a closer look

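For 7 pathway genes outside the 10 the response differed between the lines, by limma's test of the RT112 response minus the J82 response, which called 4.57% of all genes. The difference was -2.17 ± 0.26 for ASAH1 (adjusted p = 0.000201), whose log2 difference was 0.30 in RT112 and 2.47 in J82. For HEXA it was -1.60 (0.03 in RT112 and 1.63 in J82) and for CLCN7 -1.47 (0.66 in RT112 and 2.13 in J82). HEXA averaged 5.66 under palbociclib and 5.64 in control RT112, near the array medians, so background bounds its response there. PIP4P1 differed by -0.95 between the lines and PPARGC1A by -0.86, with values of 0.28 and 0.06 in RT112 and 1.23 and 0.91 in J82. RHEB (-1.08) and GLA (-1.07) also differed, with RHEB at -0.17 in RT112 and 0.91 in J82, and GLA at -0.99 in RT112 and 0.08 in J82. All 7 differences were below 0, where 2.74% of all genes were called below 0 and 1.83% above. PPARGC1A averaged 4.70 under palbociclib and 4.65 in control RT112, below the array medians, so its response there is bounded by background; in J82 it averaged 8.25 under palbociclib and 7.34 in controls.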

How the results depend on the processing

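Pathway genes called numbered 17 in RT112 (16 higher, 1 lower) and 29 in J82, all higher. The RT112 number was 6 once array medians were made equal, 37 with array weights, and 10 to 20 with an array left out; the cause was not tested. The J82 number was 19 with each line fitted alone, which leaves fewer samples for the spread. It was 20 once array medians were made equal, and 24 to 33 with an array left out. Pathway genes whose responses differed between the lines numbered 7, and 12 with array weights (9 lower, 3 higher), which gave replicate 1 of RT112 under palbociclib a weight of 0.113. Replicate numbers were not treated as pairs in the main fit. The deviations of same-numbered arrays correlated between 0.075 and 0.188 in J82, where every array correlated best with its own number. Whether the J82 samples were paired is not settled. In RT112 same-numbered arrays correlated between -0.193 and 0.173, and arrays did not all correlate best with their own number. With a replicate block the numbers were 16 in RT112, 31 in J82 and 7 for the difference; the untreated comparison has no such value, since the replicate numbers lie within a line. Of the 10 genes, 8 passed between the untreated lines, and 7 to 9 under every alternative run. The 414 values of the 10 genes under palbociclib recomputed with other settings moved by less than the SD between replicates. Many of these settings could not move such a value, such as those that alter only the spread or leave out an array of the other line. That total is therefore not a measure of how firm the values are. No called value changed sign, while FNIP2 and TFEB in RT112, which were near 0, did so with an array left out. With array weights the difference of responses was -0.57 for RRAGC and -0.27 for MCOLN1. Of the 22 named pathway calls, 10 were lost with array medians made equal. Over all the same settings 431 recomputed calls held and 31 were lost, with no change of sign. These totals count each call once per setting, so they do not show how many calls held throughout. Low signal limits FNIP2, TFEB and MITF in all groups, and MCOLN3, GPNMB, HEXA and PPARGC1A in RT112.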
